A study of Homo sapiens with 32 samples.

Results

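The genes described here were 10 genes of keratin filaments and of the epidermis: the hair keratin partner KRTAP2-3, the keratins KRT34, KRT81, KRT80, KRT8, KRT18 and KRT19, the hemidesmosome collagen COL17A1, the filaggrin gene FLG and its antisense transcript FLG-AS1. They were picked by symbol, out of 60107 genes with a row in the count table, from values of the comparison of camptothecin-treated with vehicle-treated U2OS cells. Their values in that comparison are therefore given as a description only, and tests are given for the other comparisons. All 10 genes had a row, and 9 of them passed the filter on low counts in U2OS after camptothecin.

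The study followed RNA in 2 human lines, U2OS (osteosarcoma) and HEK293T (embryonic kidney), after targeting of DNA topoisomerase 1 with camptothecin (CPT) or of the checkpoint kinase ATM. The 32 libraries were labelled U2OS CPT (libraries 26 to 29), U2OS DMSO (30 to 33), HEK293T ATM KO (18 to 21), HEK293T DMSO (3, 5, 7, 17 and 22 to 25), HEK293T CPT (2, 4, 6 and 8), U2OS ATM KO (10, 12, 14 and 16) and U2OS WT (1, 11, 13 and 15). By the methods, CPT was given for 24 hr at 400 nM to U2OS and at 100 nM to HEK293T, followed by 48 hr in fresh medium, DMSO was the vehicle, and untreated U2OS cells were grown for 72 hr. The methods describe the U2OS ATM knockout as individual CRISPR clones and, for RNA from HEK293T, the ATM inhibitor Ku-55933 at 9 µM rather than a knockout, so libraries 18 to 21 are called here by their label. The labels do not say that replicates came from separate cultures, although the methods speak of independent repeats, so the p-values measure the spread between these libraries.

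Expression profiles over 15404 genes resembled the other line than the labelled one in 14 of the 32 libraries. All 14 were among the 16 libraries numbered 1 to 17, of which 2 matched their label (library 1, U2OS WT, and library 17, HEK293T DMSO). Libraries 2, 4, 6 and 8 (labelled HEK293T CPT) and 1, 3, 5 and 7 correlated with the U2OS DMSO mean at 0.943 to 0.975, against 0.753 to 0.775 with HEK293T DMSO. Libraries 10, 12, 14 and 16 (labelled U2OS ATM KO) and 11, 13, 15 and 17 correlated with HEK293T DMSO at 0.941 to 0.976, against 0.751 to 0.770 with U2OS DMSO. These 16 libraries are called by number below and no treatment is read from them. ATM RNA need not fall with a small edit or an inhibitor. It was at 62.2 ± 9.07 CPM (SD, n = 4) in libraries 18 to 21 and 67.7 ± 11.6 CPM in 22 to 25. In libraries 10, 12, 14 and 16 it was at 35.0 ± 5.52 CPM, and in 11, 13, 15 and 17 at 29.6 ± 7.004 CPM. In libraries 2, 4, 6 and 8 it was at 50.9 ± 11.7 CPM, and in 1, 3, 5 and 7 at 60.6 ± 6.65 CPM. Each library held 1232674 to 6362433 counts on genes (median 3359463.5), so that 3 counts, the limit a count of 0 allows, equalled 0.472 to 2.43 CPM (counts per 1000000 counts on genes of the library).

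Keratins are the intermediate filament proteins of epithelia. A type I keratin pairs with a type II keratin, and the pair differs between simple epithelia (KRT8 with KRT18 or KRT19), the living and cornified layers of the skin, and hair (KRT34 and KRT81), where keratin-associated proteins such as KRTAP2-3 cross-link the filaments. In the skin, COL17A1 is the transmembrane collagen of the hemidesmosome, which ties the keratin network of basal cells to the basement membrane, and filaggrin, the product of FLG, packs keratin in the cornified layer. Neither line is of epidermal origin. Among 6 keratinocyte markers, KRT1 was at 0 in all 8 U2OS libraries 26 to 33, and KRT5, TP63 and IVL did not pass 1.24 CPM in any of them. KRT10, which was also present in HEK293T, made up nearly all of the summed level of the 6 markers, which was 33.4 to 46.8 CPM after CPT and 53.4 to 87.4 CPM with DMSO.

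Most of the genes lie in clusters. By the GRCh38 annotation of GENCODE 29, KRTAP2-3 (chr17:41059240-41060114), KRT34 (chr17:41377650-41382403) and KRT19 (chr17:41523617-41528308), all on the minus strand, are in the type I keratin cluster. KRT80 (chr12:52168996-52192000, minus), KRT81 (chr12:52285913-52291534, minus), KRT8 (chr12:52897187-52949954, minus) and KRT18 (chr12:52948871-52952901, plus) are in the type II keratin cluster, where KRT8 and KRT18 overlap at their 5′ ends. FLG (chr1:152302175-152325203, minus) lies within the span of FLG-AS1 (chr1:152168125-152445456, plus), and COL17A1 is at chr10:104031286-104085957 on the minus strand. Libraries were read from the 3′ end of transcripts. Of the 50-base words in the last 400 bases of their transcripts, KRT8 shared 17.4% and KRT18 25.6% with other genes (most often with the pseudogenes KRT8P3 and KRT18P11), KRT81 shared 16.7%, most often with the neighbouring hair keratin KRT86, KRT19 shared 1.44%, and KRTAP2-3, KRT34, COL17A1, FLG-AS1, FLG and KRT80 shared none. Reads of KRT8, KRT18 and KRT81 could therefore have been split or lost in counting.

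The 4 genes with the largest differences after CPT are shown by the 250 bases before their transcription start, from RefSeq on GRCh38.p14, to set the start regions of genes that differed together side by side. Capitals mark matches to the TATA box (TATAAA) or to the p53 decamer motif. A RefSeq window was found for 6 of the 10 genes; KRT18, KRT19, KRT80 and KRT81 had no entry.
KRTAP2-3 (chr17:41060115-41060364, minus strand): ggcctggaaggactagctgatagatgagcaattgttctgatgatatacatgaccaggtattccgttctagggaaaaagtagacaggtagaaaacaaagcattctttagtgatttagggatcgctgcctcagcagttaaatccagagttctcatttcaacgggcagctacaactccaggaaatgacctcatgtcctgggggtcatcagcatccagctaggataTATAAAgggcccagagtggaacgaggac
KRT34 (chr17:41382307-41382556, minus strand): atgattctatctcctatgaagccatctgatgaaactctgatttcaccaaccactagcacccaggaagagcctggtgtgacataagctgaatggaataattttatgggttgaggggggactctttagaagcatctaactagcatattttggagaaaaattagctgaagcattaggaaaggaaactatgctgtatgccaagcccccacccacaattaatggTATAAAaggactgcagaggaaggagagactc
COL17A1 (chr10:104085881-104086130, minus strand): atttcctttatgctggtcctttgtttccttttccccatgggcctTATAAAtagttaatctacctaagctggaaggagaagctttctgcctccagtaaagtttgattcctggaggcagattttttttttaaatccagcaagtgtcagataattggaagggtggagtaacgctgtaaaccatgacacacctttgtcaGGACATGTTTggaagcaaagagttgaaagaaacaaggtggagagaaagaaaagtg
FLG-AS1, first start (chr1:152189053-152189302, plus strand): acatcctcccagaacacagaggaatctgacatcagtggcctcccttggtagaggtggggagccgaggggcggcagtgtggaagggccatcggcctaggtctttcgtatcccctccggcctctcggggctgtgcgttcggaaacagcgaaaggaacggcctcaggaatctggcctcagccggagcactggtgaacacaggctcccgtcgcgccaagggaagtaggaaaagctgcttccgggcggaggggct
KRTAP2-3 and KRT34 held TATAAA at positions -28 and -31 from the start, COL17A1 held it at -206, and FLG-AS1 had no match in either of its start windows. Over 34788 RefSeq windows of this length, 10.8% held TATAAA on either strand. The p53 decamer motif matched once in COL17A1, at -55, once in the window of KRT8, at -136, and in 5.59% of all windows. That KRT8 window (chr12:52926470-52926719) lies within the span of the gene given above, not at its outer end. The same holds for both start windows of FLG-AS1, including the one printed above. None of the 4 windows held TGANTCA (AP-1, in 6.59% of all windows) or GGAATG (TEAD, 11.9%), and GCCNNNGGC (AP-2, 19.8%) matched once, at -166 of the first FLG-AS1 start, where it is left in lower case. These matches describe the letters of the windows and do not show that a factor was bound. The window of FLG itself held TATAAA at -30, and its matches to AP-1 and TEAD at -79 and -83 overlapped.

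After CPT, the hair-type genes KRTAP2-3 and KRT34, the collagen COL17A1 and FLG-AS1 stood far above their levels in DMSO, KRT81 stood several times above, and KRT80, KRT8 and KRT18 differed by much less. KRTAP2-3 was at 150, 200, 212 and 206 CPM in the CPT libraries and at 2.78, 4.13, 3.81 and 1.92 CPM in the DMSO libraries. Its fold change was 6.11 ± 0.19 on the log2 scale (± SE, implied by the F statistic of the fit across all genes, here and below). KRT34, a type I hair keratin, was at 57.7, 43.1, 53.7 and 43.4 CPM against 1.23, 0.344, 0.586 and 0.481 CPM, a log2 fold change of 6.32 ± 0.26. Both genes were thus in every CPT library more than 10 times above every DMSO library.

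COL17A1 was listed at 83.9, 81.3, 92.1 and 99.5 CPM after CPT. With DMSO it had 0, 0, 2 and 2 counts, or up to 0.586 CPM, which is within the limit of 3 counts in every library. The pooled counts, 1132 against 4, differed 305-fold (95% exact interval 119 to 1123, counting error only), and the fitted log2 fold change was 8.24 ± 0.27. FLG-AS1 was at 166, 153, 147 and 155 CPM against 3.70, 1.38, 3.22 and 1.202 CPM, a log2 fold change of 6.20 ± 0.19.

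FLG, on the opposite strand, did not go along with its antisense transcript in level. It had 3, 3, 0 and 2 counts after CPT and 0, 0, 0 and 1 with DMSO, a ratio of 8.63 with an exact counting interval of 1.16 to 383. Every one of these values is at or below 3 counts. Whether the counting used the strand of reads is not given in the sources used here, so reads of the overlapping stretch cannot be assigned to one gene or the other with certainty.

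KRT81, the type II hair keratin, was at 359, 309, 309 and 350 CPM after CPT and at 91.1, 61.2, 58.9 and 69.5 CPM with DMSO (log2 fold change 2.42 ± 0.12), and the libraries did not overlap. KRT80, an epithelial type II keratin, was at 82.98, 56.8, 60.3 and 62.7 CPM against 58.4, 35.4, 35.2 and 30.3 CPM (0.91 ± 0.15). Here library 30, at 58.4 CPM, lay above the lowest CPT library. Among the simple epithelial keratins, KRT8 was at 55.0, 65.4, 54.7 and 77.7 CPM against 54.6, 39.6, 39.0 and 44.7 CPM (0.68 ± 0.13), with the lowest CPT library barely above the highest DMSO library. KRT18, its partner, was at 75.6, 72.0, 64.4 and 67.7 CPM against 43.8, 44.4, 46.6 and 49.0 CPM (0.77 ± 0.12), with no overlap. KRT19, the other type I keratin of simple epithelia, had no count in any of the 8 libraries, which allows up to 0.721 to 1.04 CPM in each.

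**Figure D1:**
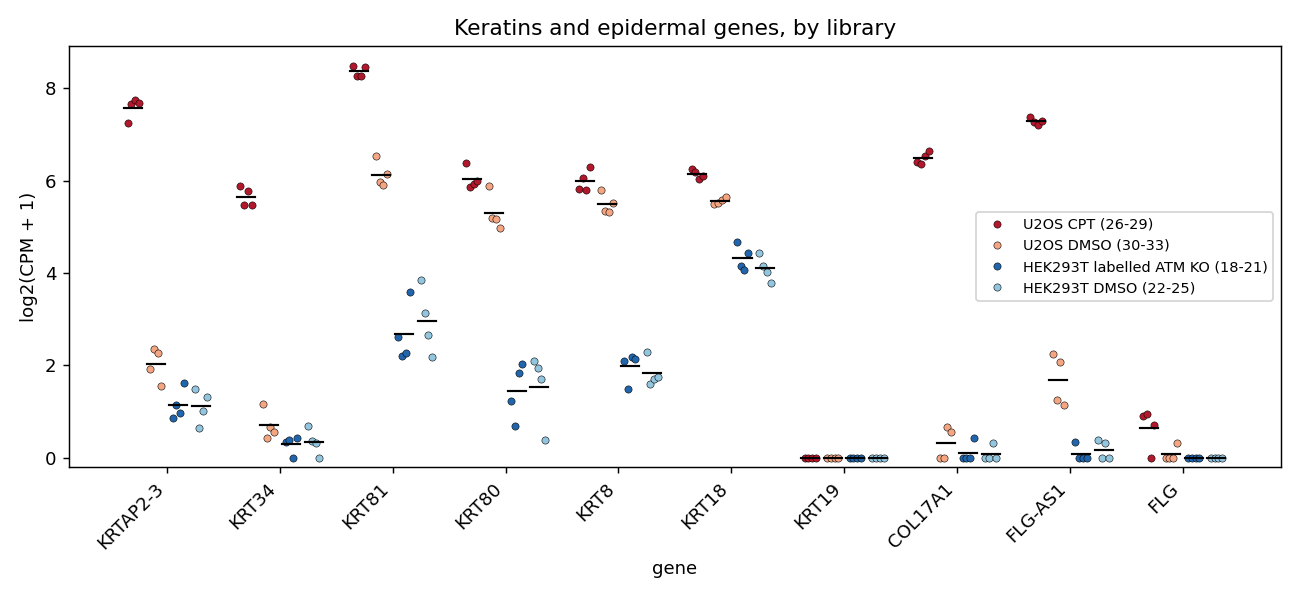
Level of each gene in each library on the log2(CPM + 1) scale, for U2OS with CPT or DMSO and for HEK293T labelled ATM KO or DMSO. Points are libraries and bars are means of 4. KRTAP2-3, KRT34, COL17A1 and FLG-AS1 do not pass 4.13 CPM in the groups other than U2OS CPT, while KRT80, KRT8 and KRT18 are present in U2OS with either treatment.

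The fit covered 19080 genes. No call is given for the 9 picked genes in it, since the same comparison chose them. As a description, their median log2 fold change was 2.72. This is the value of FLG, a gene that passed the filter only through the CPT libraries. The median over all genes was 0.01. Scaling by TMM set U2OS fold changes after CPT higher by 0.17 (log2) than plain CPM ratios would be, which moved no gene across 0. CDKN1A, the p53 target used here as a sign of the damage response, was at 389 to 434 CPM after CPT and at 91.1 to 105 CPM with DMSO.

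Summed over all 55 keratin genes other than pseudogenes and keratin-associated proteins, the level was 979 ± 47.0 CPM (SD, n = 4) after CPT and 445 ± 58.8 CPM with DMSO. The sum includes the picked keratins, so its difference partly restates their choice and is a description only. Picked KRT81 had means of 331.5 CPM after CPT and 70.2 CPM with DMSO. Of genes not picked, KRT17 was higher after CPT (284 against 119 CPM). KRT10 was lower, at 32.8 to 46.5 CPM after CPT and 51.2 to 85.5 CPM with DMSO. The sum was 85.2 ± 14.8 CPM in HEK293T DMSO libraries 22 to 25 and 83.6 ± 14.2 CPM in libraries 18 to 21. Counts were seen for 31 of the 55 genes after CPT and 21 with DMSO. In bulk RNA, a larger share of cells with a transcript and more transcript per cell cannot be told apart.

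Of the genes that were not picked, 9 lists of related genes were followed in the same U2OS comparison. They held 268 genes, 100 of which passed the filter on low counts, and 32 of these rose and 8 fell (edgeR quasi-likelihood test, absolute log2 fold change over 1, Benjamini-Hochberg adjusted p under 0.05 over all genes). Among all genes tested, 13.5% passed the threshold (7.97% higher and 5.5% lower). The lists were drawn up with the values of the 10 genes known, so their counts are a description. The other 168 listed genes were too low to be tested. With a stricter filter (filterByExpr), which tests fewer genes, 17 rose and 4 fell. Of the 32 that rose, 18 passed the filter on low counts only through the CPT libraries. Of the 8 that fell, 2 passed it only through DMSO. The direction of these genes was fixed by the filter. Among those that rose were KRT20, KRT23, KRT33B, KRT6A, KRTAP4-9, LCE1B, LCE1C, LCE1E, LCE5A, PRR9, ABCA12, ALOXE3, PPL, ST14, LAMA3, DSP, DSG3 and GRHL3. KLK7 and KRT14 were those that fell. All are included in the counts of each list below and are given without a p-value of this comparison.

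Among type I keratins, 8 were tested, 4 rose and 1 fell, with a list median log2 fold change of 1.29. KRT17, a keratin of skin appendages and of wounded epidermis, rose from 119 ± 15.7 to 284 ± 35.6 CPM (log2 fold change 1.43 ± 0.11, adjusted p = 1.5e-11). KRT20, known from the gut lining, had 94 counts after CPT and none with DMSO. This makes it at least 33.8-fold higher against a floor of 3 counts over the DMSO group. The remaining calls, named after their values were seen, were KRT33B and KRT23, which rose to 1.72 and 0.864 CPM, and the basal keratin KRT14, which fell from 1.62 to 0.0866 CPM. Of 5 type II keratins tested, 1 rose: KRT6A, with 14 counts against 0. The 2 keratin-associated proteins tested included KRTAP4-9, which rose with 20 counts against 0.

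Genes of the epidermal differentiation complex, the chromosome 1 region that holds FLG, gave 8 that rose and 1 that fell out of 17 tested (list median 1.23). S100A6 and S100A2, calcium-binding proteins, rose from 144 ± 26.8 to 296 ± 25.7 CPM (1.23 ± 0.12, adjusted p = 9.06e-10) and from 117 ± 18.3 to 235 ± 13.1 CPM (1.18 ± 0.11, adjusted p = 4.6e-10). LCE1B and LCE1E, late cornified envelope genes, rose from 1 count each to 52 and 40 counts, ratios of 56.1 (exact interval 9.63 to 2258) and 43.2 (7.31 to 1747). TCHH, encoding trichohyalin of the hair root sheath, fell from 2.73 ± 0.58 to 0.701 ± 0.36 CPM (-1.72 ± 0.49, adjusted p = 0.0072). LCE1C, LCE5A, PRR9 and S100A3 completed the calls at 2.75 CPM or less. Among the genes of this list that rose, S100A2 and S100A6 were the only ones above 5 CPM.

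Barrier and cornified envelope genes went both ways, with 7 that rose and 2 that fell out of 16 tested. CLDN1, the claudin of epidermal tight junctions, was at 87.4, 92.4, 84.8 and 89.8 CPM after CPT and at 6.79, 13.1, 7.03 and 6.01 CPM with DMSO (3.63 ± 0.17, adjusted p = 3.68e-17). ABCA12, the lipid transporter of lamellar granules, rose from 0.34 ± 0.30 to 14.5 ± 3.04 CPM (5.34 ± 0.38). ALOXE3, an epidermal lipoxygenase, had 64 counts against 0 and was at least 23.02-fold higher. By contrast the protease KLK7, which cleaves desmosomal proteins during shedding, had no count after CPT. With DMSO it had 17, 4, 10 and 11 counts, so that it was at least 12.98-fold lower after CPT. SPINK5, an inhibitor of such proteases, fell as well (from 12.9 ± 1.58 to 5.46 ± 1.36 CPM, -1.07 ± 0.23). CSTA, PRSS8, PPL and ST14 were the remaining genes that rose.

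Partners of COL17A1 at the basement membrane followed in part. Of 14 genes of the hemidesmosome and basement membrane zone, 5 rose and 1 fell. The laminin chains LAMA3 and LAMB3 were among those that rose. LAMA3 went from 3 counts to 186, a ratio of 66.9 (exact interval 22.5 to 327), and LAMB3 from 58.8 ± 15.5 to 208 ± 29.3 CPM (1.98 ± 0.16, adjusted p = 1.34e-11). The laminin receptor subunit ITGA6 rose from 184 ± 26 to 443 ± 17.4 CPM (1.45 ± 0.11), and the plakin PLEC, which links keratin to the hemidesmosome, rose from 154 to 313 CPM. FREM2, a basement membrane matrix protein, fell from 16.97 ± 3.72 to 1.91 ± 0.70 CPM (-2.97 ± 0.28, adjusted p = 5.02e-10).

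In desmosomes, the cell-cell junctions that anchor keratin, 3 of 9 tested genes rose and none fell. Of the 3, DSP and DSG3 passed the filter on low counts only through the CPT libraries, which fixed their direction. The same test gave 6 of 9 at an unadjusted p under 0.05, beside 41.1% of all genes tested. DSP, encoding desmoplakin, the link between desmosome and keratin, was at 40.0, 33.2, 31.5 and 35.6 CPM after CPT. With DMSO it was at 0.617, 0.344, 0.293 and 0 CPM (6.89 ± 0.31). PERP, a membrane protein of desmosomes and a p53 target, rose from 57.6 ± 6.96 to 113 ± 11.6 CPM (1.15 ± 0.12), and DSG3, a desmosomal cadherin, had 14 counts against 0. The list of epidermal and hair regulators showed no common direction, with a list median of -0.20. Of 21 tested, 2 rose (GRHL3 and CRABP2) and 2 fell (EHF and PRDM1). PRDM1 fell from 24.2 ± 1.71 to 4.17 ± 2.23 CPM (-2.36 ± 0.23), and GRHL3, a grainyhead factor, had 26 counts against 2, a ratio of 14.03 (3.51 to 122). TP63, the master regulator of the basal layer, stayed at 0.344 CPM or less. Of 8 other intermediate filament genes tested, the lens filament gene BFSP1 rose (1.35 ± 0.28 to 10.1 ± 0.84 CPM) and the lamin gene LMNB1 fell (295 ± 66.9 to 91.8 ± 22.6 CPM, -1.51 ± 0.15).

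**Figure D2:**
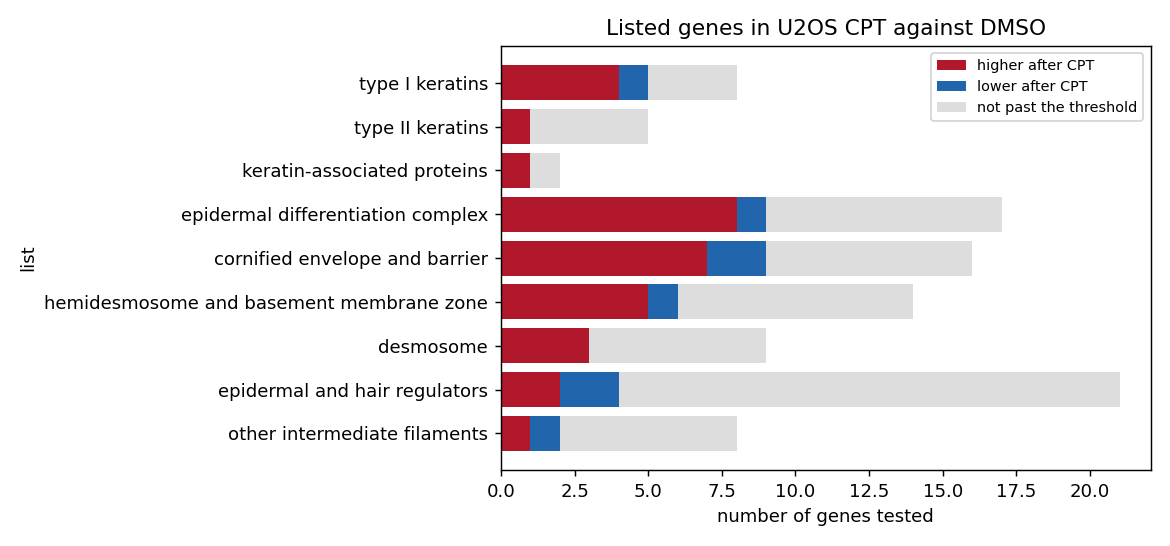
Number of tested genes of each list that were higher, lower or not past the threshold in U2OS CPT against DMSO. Type I keratins, the epidermal differentiation complex and barrier genes have more higher than lower calls, whereas regulators have 2 of each. Over all lists, 18 of the 32 higher and 2 of the 8 lower calls passed the filter only through the arm where they were high. The filter fixed the direction of these.

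**Figure D3:**
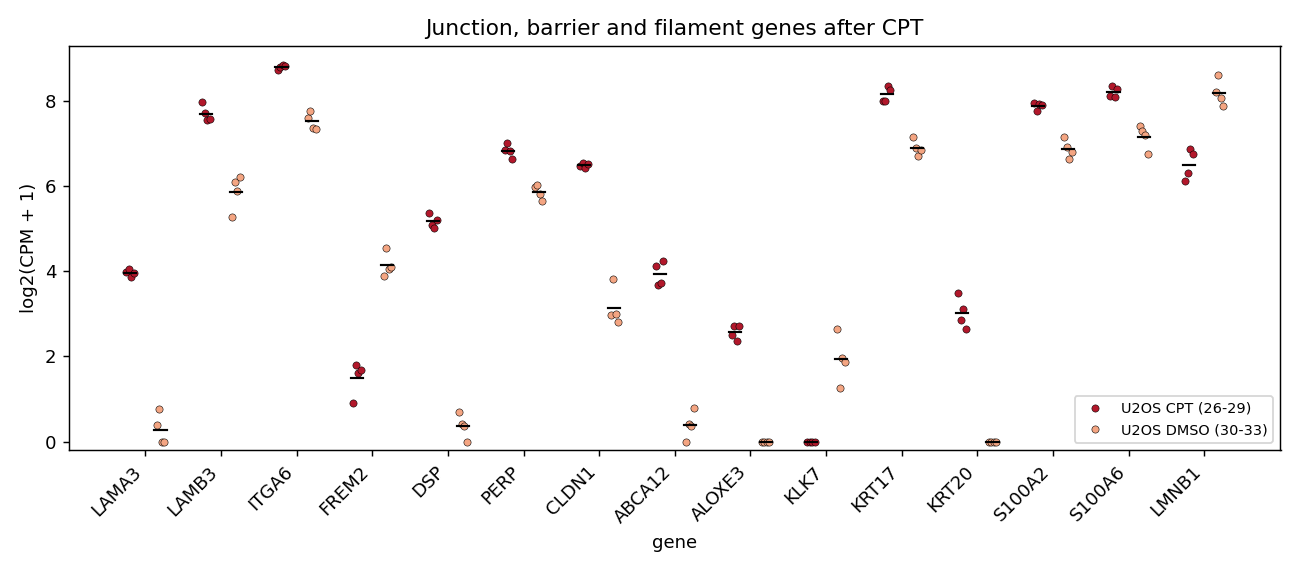
Levels on the log2(CPM + 1) scale of 15 listed genes in the 4 CPT and 4 DMSO libraries of U2OS, with bars at the mean. LAMA3, DSP, ALOXE3 and KRT20 lie near 0 with DMSO, KLK7 is at 0 after CPT, and FREM2 and LMNB1 are lower after CPT.

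To see how the 10 genes stood in vehicle-treated cells of each line, U2OS DMSO was compared with HEK293T DMSO libraries 22 to 25. This comparison shares its U2OS libraries with the one above, and TMM set its fold changes higher by 0.22 (log2) than plain CPM ratios. Of the 10 genes, 8 passed the filter on low counts, 5 of them in each line, and these 5 were higher in U2OS (KRT8, KRT80, KRT81, KRT18 and KRTAP2-3), beside 21.8% of all 19739 genes tested (18.1% were lower). The other 3 (FLG-AS1, COL17A1 and KRT34) passed the filter only through U2OS, which fixed their direction, and are given as levels without a test. KRT8 was at 44.5 ± 7.25 CPM in U2OS and 2.63 ± 0.85 CPM in HEK293T (log2 fold change 4.30 ± 0.20, adjusted p = 5.42e-19), and KRT18 at 46.0 ± 2.36 and 16.4 ± 3.31 CPM (1.72 ± 0.15, adjusted p = 4.76e-12). KRT80 differed by 4.38 ± 0.26 (39.8 ± 12.6 against 2.17 ± 1.32 CPM, adjusted p = 2.86e-16) and KRT81 by 3.46 ± 0.20 (70.2 ± 14.7 against 7.497 ± 4.33 CPM, adjusted p = 2e-16). The smaller difference of KRTAP2-3 (3.16 ± 1.01 against 1.21 ± 0.54 CPM, 1.56 ± 0.42) also passed (adjusted p = 0.00178). FLG-AS1 had 32 counts against 2, a ratio of 16.6 (exact interval 4.23 to 143), COL17A1 had 4 against 1 (ratio 4.14, interval 0.41 to 204), and KRT34 was at 0.661 ± 0.39 against 0.284 ± 0.25 CPM. In the HEK293T-like libraries 11, 13, 15 and 17, KRTAP2-3, KRT34, FLG-AS1 and KRT80 had no count and KRT81 had 1. KRT34 and COL17A1 were thus at or near the limit of 3 counts in most vehicle-treated libraries of either line.

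Genes around them differed between the lines in both directions. DSP, which rose after CPT in U2OS, was at 248 ± 16.7 CPM in HEK293T DMSO against 0.314 ± 0.25 CPM in U2OS DMSO (-9.35 ± 0.24). DSC3, a desmosomal cadherin, was likewise at 104 ± 7.13 CPM in HEK293T and had 1 count in U2OS. KRT75, a type II keratin of the hair follicle, was at 49.5 ± 9.07 CPM in U2OS and had 2 counts in HEK293T. TFAP2C, an AP-2 factor of the early epidermis, had 258 counts in HEK293T and none in U2OS. ZNF750, a factor of the upper epidermis, had 72 counts in U2OS and none in HEK293T. Each of these named genes passed the filter on low counts only through the line where it was high, which fixed its direction, and no test is given. Of 9 desmosome genes tested, 2 were higher and 5 lower in U2OS, with DSP and DSC3 counted among the lower. Of 15 hemidesmosome genes, 11 were higher and 2 lower. Among all genes tested, 21.8% were higher and 18.1% lower. The desmosome counts include genes whose direction the filter fixed, and both sets of counts are a description.

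In HEK293T, the libraries labelled ATM KO (18 to 21) were compared with DMSO libraries 22 to 25. None of the 10 genes passed the threshold: 5 were tested and 0 were called, beside 0% of all 18413 genes tested by edgeR (1019 genes, 5.53%, had an unadjusted p under 0.05, none of them among the 10). KRT18 was at 24.4, 16.9, 15.6 and 20.6 CPM against 20.6, 16.9, 15.3 and 12.7 CPM (0.31 ± 0.17, adjusted p = 0.905). KRT8 was at 3.26, 1.81, 3.51 and 3.43 CPM against 3.89, 1.999, 2.25 and 2.37 CPM (0.26 ± 0.35, adjusted p = 0.97). For both keratins the arms overlapped. KRT81 was at 5.16, 3.62, 3.83 and 10.96 CPM against 13.5, 7.71, 5.26 and 3.55 CPM (-0.30 ± 0.32, adjusted p = 0.963). The log2 fold changes of KRT80 (-0.17 ± 0.48) and KRTAP2-3 (0.10 ± 0.53) were also within their errors. KRT34, COL17A1 and FLG-AS1 had at most 2 counts in any of these 8 libraries, FLG and KRT19 had none, and a difference in them was not detectable at this depth.

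Of the 5 U2OS markers, only CD44 and S100A6 are given by library here. KRT81 had its 3 highest values of these HEK293T libraries in libraries 22, 23 and 21, at 13.5, 7.71 and 10.96 CPM. CD44 was at 9.27, 7.43 and 6.17 CPM in the same libraries, so it did not rank these 3 as KRT81 did. S100A6, another of the markers, was at 2.39, 1.14 and 2.06 CPM in these libraries. It was at 1.78 CPM in library 25, where KRT81 was lowest (3.55 CPM). In the HEK293T-like libraries 11, 13, 15 and 17, CD44 did not pass 0.444 CPM and KRT81 did not pass 0.222 CPM. The summed level of the 5 U2OS markers, all of which had counts, was 57.6 to 95.9 CPM in libraries 18 to 21, 65.8 to 82.3 CPM in 22 to 25 and 53.1 to 62.0 CPM in 11, 13, 15 and 17, against 629 to 698 CPM in U2OS DMSO. Its part in the KRT81 values was not tested. Without libraries 21 and 22 the log2 fold change of KRT81 was -0.29.

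A test of the difference between both effects (U2OS CPT against DMSO, less HEK293T labelled ATM KO against DMSO) was made for listed genes only. Of 117 tested in the joint fit, 14 moved more in the direction of higher levels in U2OS and 4 more in the direction of lower levels, beside 830 and 769 of all 21441 genes. On the log2 scale, the difference was 6.86 for DSP and 6.37 for LAMA3. Both are given without a p-value, since the filter fixed their direction in U2OS. For CLDN1 the difference was 3.87 (adjusted p = 2.06e-09). KRT17 differed by 2.23 (adjusted p = 0.00179) and LMNB1 by -1.38 (adjusted p = 2.3e-07). The named genes were picked by their fold change in the U2OS comparison, whose libraries this test reuses. Its counts and p-values are therefore a description. Agent and cell line both differ between these comparisons and cannot be told apart.

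**Figure D4:**
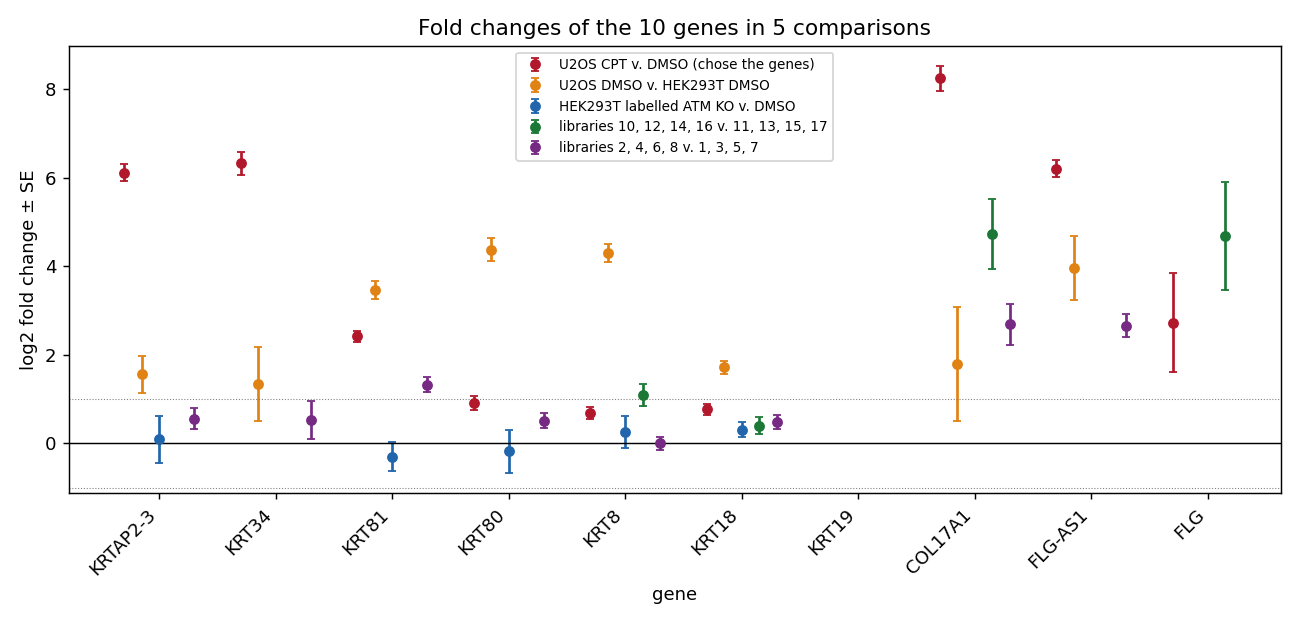
Fitted log2 fold change ± SE of each gene in each comparison in which it was tested (a gene with no point was too low), with dotted lines at the fold change threshold. Values for U2OS CPT against DMSO chose the genes; fitted values of genes with an arm near 0 (FLG, COL17A1) depend on the fit and are no bounds. HEK293T points labelled ATM KO lie about 0.

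Libraries 1 to 8 resembled U2OS whatever their labels. Libraries 2, 4, 6 and 8 carry the label HEK293T CPT, and were set against 3, 5 and 7 (labelled HEK293T DMSO) and 1 (labelled U2OS WT). Of 8 genes tested, 3 were higher in libraries 2, 4, 6 and 8, beside 2.8% of all 18591 genes tested, and none was lower (2.44% of all genes were). FLG-AS1 was at 28.4, 26.5, 32.98 and 19.2 CPM against 2.12, 4.76, 4.93 and 3.82 CPM (2.66 ± 0.26, adjusted p = 5.59e-12). COL17A1 was at 4.06, 5.77, 8.50 and 4.64 CPM against 0, 1.30, 0.548 and 1.36 CPM (2.69 ± 0.46, adjusted p = 1.8e-05). KRT81 was at 275, 217, 322 and 538 CPM against 114, 114, 139 and 154 CPM (1.33 ± 0.17, adjusted p = 1.87e-08). In all 3 the arms did not overlap, beside 7.61% of all genes tested that were higher without overlap. With the groups as labelled, which mix libraries resembling both lines among the controls, none of the genes passed.

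KRTAP2-3 and KRT34, the other hair-type genes, did not pass the threshold in these libraries. KRTAP2-3 was at 26.8, 11.5, 16.3 and 15.6 CPM against 13.4, 6.49, 14.2 and 10.1 CPM (0.56 ± 0.24, adjusted p = 0.115), and KRT34 at 0, 2.41, 3.99 and 5.67 CPM against 0.706, 1.30, 3.01 and 3.82 CPM (0.53 ± 0.43, adjusted p = 0.479). For both genes the arms overlapped. KRT18 (118 ± 43.7 against 82.0 ± 16.99 CPM, 0.49 ± 0.16, adjusted p = 0.0348) and KRT80 (67.3 ± 19.4 against 45.8 ± 12.7 CPM, 0.51 ± 0.17, adjusted p = 0.0295) passed the p threshold but not the fold change threshold. KRT8 was at 103 to 131 CPM in all 8 libraries (0.01 ± 0.15, adjusted p = 0.982). Its levels were above those of U2OS DMSO libraries 30 to 33 (39.0 to 54.6 CPM) in each of the 8, which was not tested. FLG had 1 count in all, in library 7, and KRT19 had none.

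Genes named above from the lists did not all go the same way in these libraries as after CPT in U2OS. CLDN1 (47.3 ± 9.01 against 21.7 ± 6.32 CPM, 1.097 ± 0.19, adjusted p = 1.76e-05) and PERP (123 ± 2.55 against 53.6 ± 13.9 CPM, adjusted p = 1.71e-07) were higher in libraries 2, 4, 6 and 8. KRT17 (83.5 ± 28.02 against 195 ± 30.3 CPM, -1.24 ± 0.16, adjusted p = 2.53e-08) was lower. ITGB4, the partner chain of ITGA6 in hemidesmosomes, was at 23.03 ± 6.29 against 6.80 ± 0.51 CPM (1.78 ± 0.23, adjusted p = 4.71e-08). CDKN1A was at 77.9 to 162 CPM in libraries 2, 4, 6 and 8 and at 76.2 to 125 CPM in the others. The 5 U2OS markers summed to 838 to 1152 CPM and 630 to 903 CPM, and their part in these differences was not tested.

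Libraries 10 to 17 resembled HEK293T. Libraries 10, 12, 14 and 16, labelled U2OS ATM KO, were set against 11, 13 and 15 (labelled U2OS WT) and 17 (labelled HEK293T DMSO). Of the 4 genes that passed the filter on low counts, KRT8 and KRT18 passed it in each arm, and 1 of them, KRT8, was higher in libraries 10, 12, 14 and 16, beside 9.52% of all 19464 genes tested (4.45% were lower). COL17A1 and FLG passed the filter only through libraries 10, 12, 14 and 16, so that their direction was fixed by it, and their counts are given without a test. COL17A1 had 4, 11, 4 and 13 counts against 0, 1, 0 and 0, or 1.22, 3.40, 1.28 and 2.04 CPM against at most 0.169 CPM, a ratio of 41.7 (exact interval 6.97 to 1699, counting error only). FLG had 3, 1, 1 and 6 counts against none. Both genes were low in absolute terms. KRT8 was at 5.82, 8.33, 7.36 and 6.92 CPM against 3.87, 2.88, 2.44 and 3.77 CPM (1.09 ± 0.25, adjusted p = 0.00144), with no overlap. KRT8 fell under the fold change threshold without library 15 (0.98, adjusted p = 0.00673). KRT8 passed with filterByExpr as well, but with the groups as labelled it was at -2.24 (adjusted p = 0.31).

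KRT18 did not pass in these libraries (0.40 ± 0.19, adjusted p = 0.107): it was at 21.7, 22.2, 22.1 and 38.7 CPM against 21.2, 23.2, 18.2 and 16.6 CPM. KRTAP2-3 and FLG-AS1, among the genes farthest apart after CPT in U2OS, had no count in any of the 8 libraries, and KRT34, KRT80 and KRT81 had 3 counts or fewer in all. KRT19 had its only counts of the series here, 1 in library 10 and 2 in library 16. Among listed genes, ABCA12 (25 counts against 0, at least 10.9-fold) and GRHL3 (28 against 0, at least 12.2-fold) were higher in libraries 10, 12, 14 and 16. ALOXE3 was lower there (3 counts against 34, ratio 0.115, interval 0.0226 to 0.366). Each of these passed the filter only through the arm where it was high, which fixed its direction, and no test is given. The homeobox gene MSX2, of the hair matrix and limb, was at 136 ± 16.03 against 24.5 ± 3.83 CPM (2.45 ± 0.13, adjusted p = 9.67e-12). CDKN1A was at 121 to 228 CPM in libraries 10, 12, 14 and 16 and 19.5 to 56.9 CPM in the others.

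Other measures differed between the arms of libraries 10 to 17. The share of reads on no annotated feature was 15.8% to 18.5% in libraries 10, 12, 14 and 16 and 9.39% to 10.99% in 11, 13, 15 and 17. The 5 U2OS markers summed to 118 to 173 CPM and 53.1 to 62.0 CPM. Of these, ANXA1 was at 32.3 against 4.46 CPM (means), CAV1 at 40.5 against 20.9 CPM and TIMP1 at 60.6 against 31.6 CPM. CD44 did not pass 1.22 CPM and S100A6 did not pass 0.612 CPM. In U2OS itself the sum also differed with treatment, at 1615 to 1752 CPM after CPT and 629 to 698 CPM with DMSO. The part of the no-feature share or of the markers in these results was not tested.

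**Figure D5:**
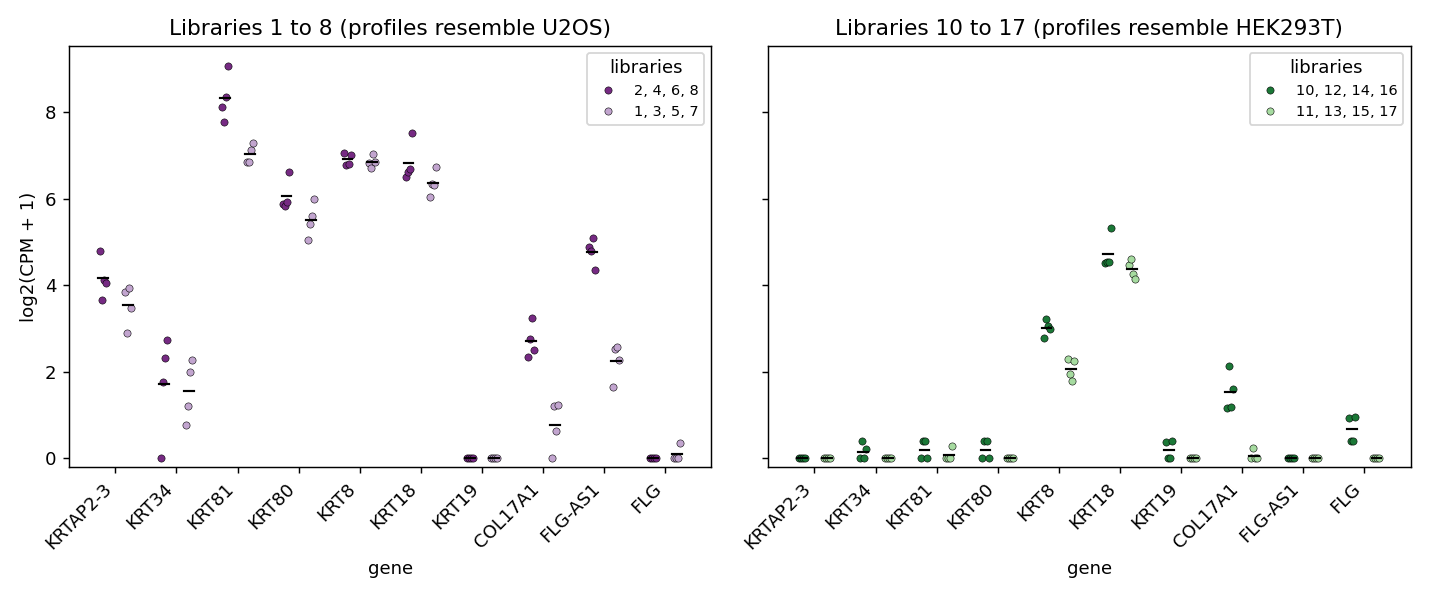
Level of each gene by library on the log2(CPM + 1) scale, at left in the libraries numbered 1 to 8 and at right in those numbered 10 to 17, with bars at the mean of 4. FLG-AS1, COL17A1 and KRT81 separate the arms at left, and COL17A1, FLG and KRT8 do so at low levels at right.

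Across all 32 libraries, the genes most like 3 of the members in level were named by Pearson correlation of log2(CPM + 1) over 11490 genes of mean 5 CPM or more. These are descriptions, since the points include 2 lines and several treatments. COL17A1 was most like CFAP58 (0.933), SLAMF7 (0.931), the death receptor gene FAS (0.928), SCN2A (0.925) and NECTIN4 (0.921). FAS was at 72.1 CPM after CPT and 12.1 CPM with DMSO in U2OS. KRT81 was most like NNMT (0.989), followed by KRT80 (0.983), AHNAK, CSRP1 and PTPRM. KRT8 was most like GPR158 (0.986), ERBIN, OLFML3, SYT11 and the integrin gene ITGB1. KRT81, KRT80 and KRT8 were higher in U2OS-like than in HEK293T-like libraries. Levels of the other genes of the last 2 sets in HEK293T-like libraries are not given here.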

How the data were processed

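RNA of 32 U2OS and HEK293T libraries was made into 3′ end libraries with unique molecular identifiers. The authors counted reads per gene with the Lexogen QuantSeq pipeline 2.3.1 on BlueBee 1.10.18 and deposited raw counts, 1 column per library; the genome build, and whether counting used strand, are not given in the sources used here. The table held 60107 genes (56104 with a symbol), beside 92 spike-in rows and 5 summary rows, which were left out of totals and tests. Reads on no feature were 9.39% to 39.9% and ambiguous reads 0.631% to 1.51%.

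CPM were counts over all counts on genes. A gene was tested if 2 or more libraries of the comparison held over 1 count of it, and was fitted with edgeR 4.0.16 in R 4.3.3 (TMM, quasi-likelihood test, Benjamini-Hochberg adjustment over all genes tested); the call needed an adjusted p under 0.05 and an absolute log2 fold change over 1. The script was checked on simulated counts. No pair of libraries held the same counts (at least 17582 genes differed). Ratios of low counts have exact conditional binomial intervals at 95%, which, like the floor of 3 counts, cover counting error only.

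Groups came from the labels. The 10 genes and the 9 lists were chosen with earlier results of these data known. Named from each list were up to 5 called genes with the largest fold change in U2OS CPT against DMSO, a mean over 1 CPM and no overlap, and up to 2 more in each other comparison; likeness was the highest Pearson r among genes of mean 5 CPM or more. Alternatives were RLE factors, other filters, the likelihood ratio test, DESeq2 1.42.0, 1 fit over all libraries, each library left out and the groups as labelled. Sequences came from RefSeq (GRCh38.p14). A listed gene that entered the counts is not reported here.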

Additional observations from a re-analysis of the deposited data

Results flagged for a closer look

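Levels of the 10 genes were checked for a library far from the other 3 of its group in 50 groups of 4 libraries with more than 3 counts, and 4 stood out, where chance flags about 1 in 20 groups. Library 8 held the highest KRT18 and KRT80 of libraries 2, 4, 6 and 8, at 183 and 96.4 CPM. In library 16 KRT18 was at 38.7 CPM, above libraries 10, 12 and 14. Library 19 held the lowest KRT8 of the libraries labelled HEK293T ATM KO, at 1.81 CPM.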

How the results depend on the processing

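No paired analysis was possible because the replicate numbers are library numbers, which no 2 groups share, and no source used here ties libraries of different groups to 1 repeat. Among listed genes in U2OS CPT against DMSO, the number higher moved from 32 to 17 and the number lower from 8 to 4 with the filterByExpr filter, which tests fewer genes, and the number lower rose to 15 with no cutoff on fold change; leaving out each library gave 28 to 32 higher and 7 to 9 lower. The median log2 fold change of the 9 genes tested, 2.72, was 4.27 with filterByExpr, which leaves out FLG, and 2.44 to 4.17 with each library left out, the last without library 33, the only DMSO library with a count of FLG. In libraries 10 to 17, the number of these genes higher moved from 3 (COL17A1 and FLG, present only through 1 arm, included) to 1 with filterByExpr and to 1 with groups as labelled, where KRT8 reversed to -2.24 (adjusted p = 0.31), and was 2 to 3 with each library left out. In libraries 1 to 8, the number was 5 with no cutoff on fold change and 0 with groups as labelled, and 3 with each library left out. Groups as labelled mix U2OS-like and HEK293T-like libraries among the controls. Settings chosen after seeing the data left calls as they were (HEK293T without libraries 21 and 22, libraries 1 to 8 without libraries 1 and 2), except that KRT34 passed in U2OS DMSO against HEK293T-like libraries 11, 13, 15 and 17 (adjusted p = 0.00152, with no count of it in those libraries, so that its direction was fixed). In HEK293T labelled ATM KO against DMSO, 0 of the genes passed under every alternative run. The other alternatives run kept each of these counts within 1.5 times. Depth limited FLG and KRT19 and, in libraries 18 to 25, KRT34, COL17A1 and FLG-AS1.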
